A study of Mus musculus with 59 samples.

Results

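The mitochondrial ribosomal protein genes were taken as all symbols that start with Mrpl or Mrps followed by a number, with no pseudogene suffix and a mean level over the 59 libraries of 1 FPKM or more. FPKM values are fragment counts scaled by transcript length and by the size of the library. All 77 such symbols of the 24346 in the table met the rule, and the lowest of them, Mrpl17, had a mean of 4.87 FPKM, so no symbol lay just outside the limit. Of the 77 members, 50 encode proteins of the large subunit, 26 encode proteins of the small subunit and 1, Mrps36, encodes a protein now assigned to the 2-oxoglutarate dehydrogenase complex. By ancestry, 45 have bacterial ribosomal homologues and 29 are found in mitochondrial ribosomes without a bacterial counterpart. The remaining members are Mrps36 and the S18 relatives Mrps18a and Mrps18b.

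The libraries were made from total RNA of the ventral tegmental area of male mice, the midbrain region that holds the mesolimbic dopamine neurons, and were sequenced as bulk RNA. Cocaine was set against saline in 4 paradigms. The groups were acute home cage injection (5 cocaine and 6 saline libraries), chronic home cage injection (6 cocaine and 6 saline), conditioning (6 cocaine and 6 saline) and intravenous self-administration (15 cocaine and 9 saline). No group carries a genetic change by its labels, and the labels give no strain, age, dose, session number or interval before dissection. They also do not say whether libraries of a group came from separate animals, and the p-values given here cover the spread among these libraries, which may be partly technical. All 20 markers of dopamine neurons were present and none was at 0 in any library, with a summed level of 853 to 3546 FPKM.

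Mitochondrial ribosomes translate the few mRNAs of the mitochondrial genome, all of which encode membrane subunits of the respiratory chain and ATP synthase. Their proteins are encoded in the nucleus, made in the cytosol and imported. The small subunit holds the decoding centre, and the large subunit forms the peptide bond and lies against the inner membrane. In dopamine neurons, whose long axons and pacemaking place a high demand on oxidative phosphorylation, mitochondrial function has been studied closely.

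The sequences that precede 4 members are shown because 3 of them, Mrpl34, Mrps12 and Mrpl52, had the largest falls described below and Mrps18b had the largest rise that was called in both contrasts of self-administration with the other paradigms. Mrpl34 encodes a large-subunit protein with a bacterial L34 homologue (chromosome 8, 71464959 to 71465747, plus strand, GRCm38). Mrps12 encodes the S12 protein of the decoding centre (chromosome 7, 28739641 to 28741820, minus strand). Mrpl52 encodes a large-subunit protein with no bacterial counterpart (chromosome 14, 54426909 to 54429756, plus strand), and Mrps18b encodes an S18 relative of the small subunit (chromosome 17, 35910379 to 35916389, minus strand). Each run holds 250 bases before and 50 bases after the RefSeq transcription start on GRCm38.p6, written 5′ to 3′ on the gene's own strand, and capitals mark a match to the ETS, NRF1 or YY1 motif. The windows are chr8:71464676-71464975 on the plus strand for Mrpl34, chr7:28741772-28742071 on the minus strand for Mrps12, chr14:54426659-54426958 on the plus strand for Mrpl52 and chr17:35916391-35916690 on the minus strand for Mrps18b. The gene coordinates come from another annotation, GENCODE, whose starts need not match those of RefSeq. The Mrps18b window thus lies wholly outside the gene coordinates given for it.
Mrpl34: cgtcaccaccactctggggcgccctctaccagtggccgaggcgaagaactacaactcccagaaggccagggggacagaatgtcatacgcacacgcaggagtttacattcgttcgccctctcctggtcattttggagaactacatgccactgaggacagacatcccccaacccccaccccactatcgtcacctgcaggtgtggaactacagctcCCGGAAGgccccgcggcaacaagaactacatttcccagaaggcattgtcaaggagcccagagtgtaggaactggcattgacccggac
Mrps12: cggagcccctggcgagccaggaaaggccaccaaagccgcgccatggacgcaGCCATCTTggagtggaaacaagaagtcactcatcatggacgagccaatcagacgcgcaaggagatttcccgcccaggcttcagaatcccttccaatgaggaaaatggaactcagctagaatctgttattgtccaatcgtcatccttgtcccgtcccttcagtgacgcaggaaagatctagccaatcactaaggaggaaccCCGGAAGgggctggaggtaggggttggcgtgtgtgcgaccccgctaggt
Mrpl52: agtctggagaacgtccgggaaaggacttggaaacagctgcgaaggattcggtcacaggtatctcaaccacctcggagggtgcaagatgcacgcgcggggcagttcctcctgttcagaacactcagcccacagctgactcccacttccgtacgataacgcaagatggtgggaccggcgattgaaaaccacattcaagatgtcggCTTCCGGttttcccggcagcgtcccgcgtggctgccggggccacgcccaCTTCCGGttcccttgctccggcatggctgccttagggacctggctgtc
Mrps18b: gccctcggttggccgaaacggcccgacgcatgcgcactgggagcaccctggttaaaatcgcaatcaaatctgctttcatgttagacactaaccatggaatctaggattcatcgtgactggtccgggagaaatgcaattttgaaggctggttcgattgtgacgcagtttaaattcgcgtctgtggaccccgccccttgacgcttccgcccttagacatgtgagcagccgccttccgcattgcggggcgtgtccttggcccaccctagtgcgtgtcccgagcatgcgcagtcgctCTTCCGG
The Mrpl34 window held 1 ETS match, the Mrps12 window 1 ETS and 1 YY1 match, the Mrpl52 window 2 ETS matches and the Mrps18b window 1 ETS match. None of the 4 windows held the TATA letters.

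RefSeq promoters were found for 68 of the 77 members. Motifs were searched on both strands as the letters CCGGAAG for ETS factors, GCGCA, any base and GCGC for NRF1, AAGATGGC for YY1 and TATAAA for the TATA box, and an ETS match can share its last letters with a YY1 match. The ETS letters occurred in 24 member promoters (35.3%), against 9.12% of all 27018 promoters and 17.4% of the 9957 promoters of genes tested here. The YY1 letters occurred in 12 member promoters (17.6%), against 2.88% of all promoters and 4.73% of those of tested genes. The NRF1 letters occurred in 13 (19.1%), against 4.79% and 10.3%. At least 1 of these 3 motifs lay in 41 member promoters (60.3%), against 15.2% of all promoters and 28.8% of those of tested genes. The TATA letters occurred in 4 (5.88%), against 14.2% and 6.66%. The median GC content of the windows was 58.2% for members and 52.7% for all promoters. A match of letters is a description of the window and does not show that a factor binds there.

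For 18 of the 77 members (23.4%) a coding neighbour started within 1000 bases upstream and ran away on the opposite strand. This held for 1113 of 12166 coding genes (9.15%) whose mean level reached 1 FPKM. Pairs whose starts lay inside each other were not counted. Mrps12 starts 172 bases from Sars2, which encodes the mitochondrial seryl-tRNA synthetase, and Mrpl49 starts 59 bases from Fau, which encodes a ubiquitin-like fusion with cytosolic ribosomal protein S30. Mrps18b starts 45 bases from Ppp1r10, a regulatory subunit of protein phosphatase 1, Mrps18c starts 29 bases from the helicase gene Helq, and Mrpl40 starts 175 bases from the histone chaperone gene Hira. Other members overlap a neighbour: Mrps11 and Mrpl46 overlap each other on opposite strands, Mrps34 overlaps Nme3, Mrps24 overlaps Urgcp, Mrps6 overlaps Slc5a3 and Mrpl53 overlaps Gm42688 on the same strand, and Mrpl43 overlaps Twnk, Mrpl36 overlaps Ndufs6 and Mrps25 overlaps Nr2c2 on the opposite strand. Mrpl23, Mrpl48 and Mrps36 have named pseudogene copies. Whether the counting used strand is not given in the sources used here, so levels of overlapping or copied genes are uncertain to that extent.

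The members were transcripts of moderate and even level. Their median of mean FPKM was 29.1, against 11.1 over the 13186 genes whose mean reached 1 FPKM, and 71 of the 77 lay between 10 and 100 FPKM. Large-subunit members had a median of 29.3 FPKM and small-subunit members a median of 26.8 FPKM. Members with bacterial homologues had a median of 31.0 FPKM and mitochondria-specific members 25.97 FPKM. No member was at 0 in any library.

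Mrps21, the S21 homologue of the small subunit, had the highest mean level, at 118 FPKM. It was followed by Mrpl20 (94.0 FPKM), a bacterial-type protein of the large subunit, Mrpl42 (80.2 FPKM), Mrpl52 (73.6 FPKM), Mrpl12 (72.5 FPKM), the L7/L12 stalk protein, and Mrpl30 (71.9 FPKM). At the low end were Mrpl1 (6.93 FPKM), which forms the L1 stalk, Mrpl57 (6.78 FPKM), Mrpl19 (6.25 FPKM) and Mrpl17 (4.87 FPKM).

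**Figure D1:**
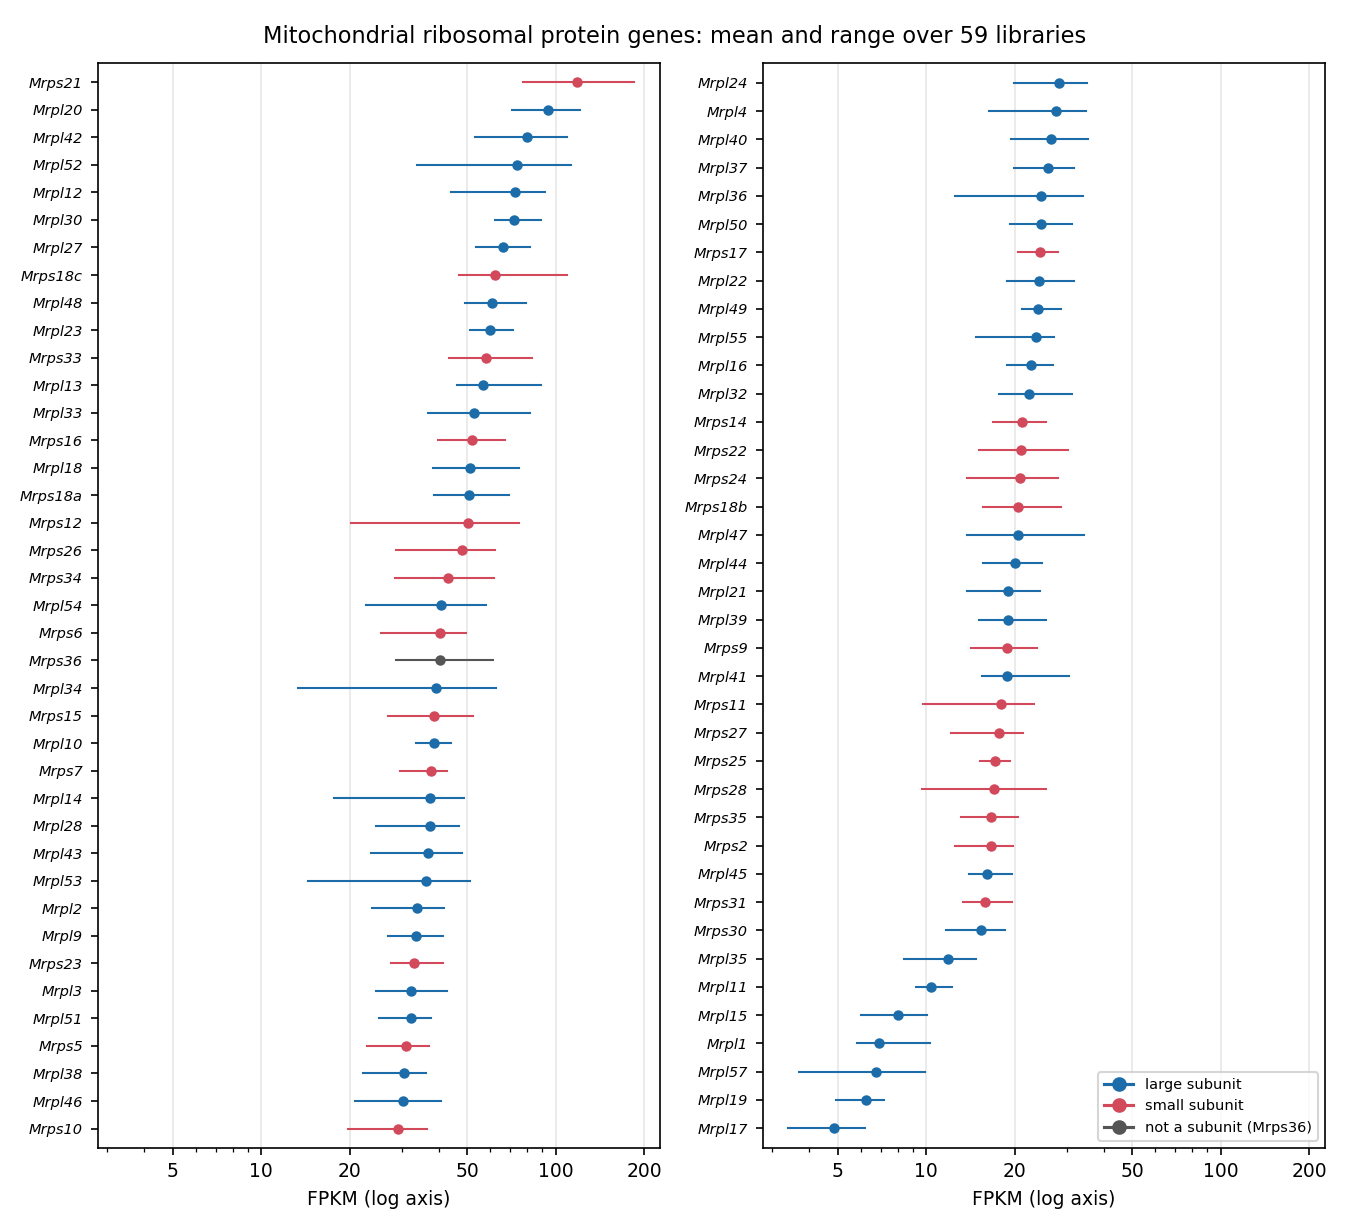
Mean FPKM (points) and lowest to highest FPKM over 59 libraries (lines) for each of the 77 members, on a log axis, ordered by mean and coloured by subunit. Most members lie between 10 and 100 FPKM, with Mrps21 highest at 118 FPKM and Mrpl17 lowest at 4.87 FPKM.

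The members sat below the cytosolic ribosome and the respiratory chain in transcript level. The 82 cytosolic ribosomal protein genes had a median of mean FPKM of 338, and the 81 nuclear oxidative phosphorylation genes had a median of 198 FPKM. The 6 mitoribosomal genes that carry no Mrp symbol had a median of 33.3 FPKM, near that of the members. The factors that serve the mitoribosome were lower: 10.7 FPKM for 14 mitochondrial translation factors, 8.34 FPKM for 26 genes of mitoribosome assembly and mitochondrial RNA handling, and 6.57 FPKM for 20 mitochondrial aminoacyl-tRNA synthetase genes. Members varied within groups about as much as other genes, with a median within-group SD of 0.130 on the log2(FPKM + 1) scale, against 0.138 over all genes. Among members that SD ran between 0.0437 for Mrps25 and 0.250.

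Differences below are on the log2(FPKM + 1) scale, which understates the change of low genes, and calls rest on limma with Benjamini-Hochberg adjustment over all genes tested, at an adjusted p under 0.05. No member rose or fell with cocaine in any paradigm. After chronic injection 72 of the 77 members had a higher mean in cocaine than in saline libraries, with a median difference of 0.085, while 51.3% of the 13190 genes tested were higher and the median over all genes was 0.0024. At an unadjusted p under 0.05, 20 members were higher and none was lower after chronic cocaine, against 4.15% of all genes higher (548 genes) and 3.23% lower (426 genes). No gene of the table passed the adjusted threshold (0% of genes called). An exact permutation test over all genes also called 0. Its smallest possible p of 0.00216 left little room for a call after adjustment over 13190 genes, so that 0 is no separate evidence.

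The chronic difference was positive in both subunits, for 49 of 50 large-subunit members (median 0.075) and 22 of 26 small-subunit members (median 0.091), and by ancestry for 44 of 45 members with bacterial homologues (median 0.088) and 25 of 29 mitochondria-specific members (median 0.070). Differences ran between -0.047 for Mrps6 and 0.24 for Mrpl52, and Mrpl37, Mrps6, Mrps25 and Mrps35 had the smallest unadjusted p among the 5 members with a lower mean.

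Mrpl52 had between 94.0 and 112 FPKM in chronic cocaine libraries (median 104, mean 104 ± 7.21, SD, n = 6), and between 77.7 and 94.9 FPKM in chronic saline libraries (median 87.5, mean 87.3 ± 6.72, SD, n = 6). Only the ends of the groups overlapped. The difference was 0.24 ± 0.06 (SE), with an adjusted p of 0.429 and an exact two-sided permutation p of 0.00649 before adjustment.

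Mrpl11, the L11 protein at the base of the stalk that engages translation factors (chromosome 19, 4962147 to 4966999, plus strand), had between 10.7 and 11.7 FPKM in chronic cocaine libraries (median 10.9) and between 9.95 and 10.5 FPKM in chronic saline libraries (median 10.2). It was the 1 member whose chronic groups did not overlap, with every cocaine library above every saline library, as was the case for 0.341% of all genes tested. Its difference was 0.11 ± 0.03 (adjusted p = 0.548), and its exact permutation p of 0.00216 is the smallest that 6 libraries against 6 allow.

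Mrps12 had between 57.8 and 72.0 FPKM in chronic cocaine libraries (median 67.8) and between 52.4 and 63.96 FPKM in chronic saline libraries (median 59.7), a difference of 0.18 ± 0.06 with an adjusted p of 0.578. Mrps26, a mitochondria-specific protein of the small subunit, had between 56.8 and 61.1 FPKM in chronic cocaine libraries (median 58.99) and between 51.1 and 59.5 FPKM in chronic saline libraries (median 53.0), a difference of 0.13 ± 0.04 with an adjusted p of 0.4996. In both genes the groups overlapped and the cocaine medians were higher.

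Other nuclear genes of the organelle, and the cytosolic ribosomal protein genes, also had mostly positive differences in the chronic paradigm. Of 80 oxidative phosphorylation genes tested, 79 were higher (median 0.14), as were 80 of 82 cytosolic ribosomal protein genes (median 0.092), and no gene of either list was called. Of the members' own helpers, 12 of 14 translation factors (median 0.011) and 13 of 20 aminoacyl-tRNA synthetase genes (median 0.036) had a higher mean. Cell type markers also differed in mean. Of 20 dopamine neuron markers 19 had a higher mean (median 0.18), with summed levels of 1380 to 3546 FPKM in chronic cocaine and 979 to 3463 FPKM in chronic saline libraries. Of 13 endothelial and pericyte markers 1 had a higher mean (median -0.17), with summed levels of 170.2 to 213 FPKM in chronic cocaine and 204 to 225 FPKM in chronic saline libraries. No marker of these lists was at 0 in any library, and the part of cell composition in the members' values was not tested. In bulk RNA, fewer cells of a type and less RNA per cell cannot be told apart. Short transcripts were also slightly higher after chronic cocaine: of 10 equal bins of transcript length, the shortest had a median difference of 0.033 and the longest -0.029, and the median transcript length was 849 bases for members and 1455 bases for all genes.

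**Figure D2:**
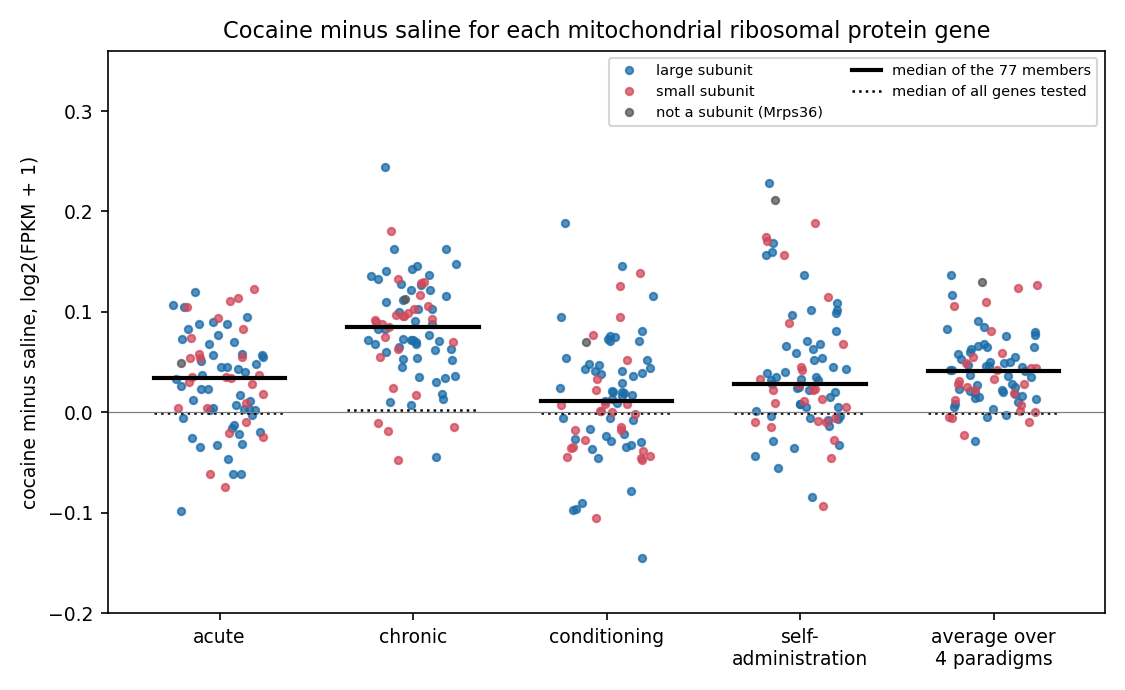
Cocaine minus saline difference on the log2(FPKM + 1) scale (vertical axis) for each member in the 4 paradigms and in the average over them, with the median of the members (solid bar) and of all genes tested (dotted bar). The members' median was 0.085 in the chronic paradigm and between 0.011 and 0.034 in the acute, conditioning and self-administration paradigms.

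After acute injection 58 of 77 members had a higher mean in cocaine libraries (median 0.034), against 49.4% of the 13164 genes tested. At an unadjusted p under 0.05, 0 members were higher and 1 was lower, against 2.17% and 1.74% of all genes (286 and 229 genes), and no gene was called at the adjusted threshold (0%). The lower member was Mrpl11, which had 10.1, 10.9, 10.2, 10.1 and 9.54 FPKM in the acute cocaine libraries, against 10.1 to 11.4 FPKM in the acute saline libraries (median 11.0). The groups overlapped, and the difference of -0.10 ± 0.04 had an adjusted p of 0.985. Mrpl54, a mitochondria-specific large-subunit protein, had 52.9, 56.2, 47.1, 47.5 and 48.7 FPKM in acute cocaine libraries, against 42.7 to 50.1 FPKM in acute saline libraries (median 46.8). Here too the groups overlapped, with a difference of 0.12 ± 0.06 (adjusted p = 0.985). Mrps23, a mitochondria-specific small-subunit protein, had 33.4, 34.6, 36.4, 34.8 and 41.6 FPKM in acute cocaine libraries, against 32.7 to 35.0 FPKM in acute saline libraries (median 33.7), and Mrpl4, the L4 homologue, had 29.6, 32.3, 32.3, 31.7 and 31.3 FPKM, against 27.0 to 31.3 FPKM (median 30.2). Both pairs of groups overlapped. The acute values moved with rescaling, as did those of all genes, and with 1 library. Rescaled to a total of 1000000 per library, 45 members were positive with a median of 0.013. The median over all genes moved by -0.021, to -0.022. With quantile normalization 59 members were positive, with a median of 0.033. Without acute cocaine library 4, in the deposited numbering that starts at 0, the median difference was 0.0055 and 46 members were positive. In the acute libraries 1 of 20 dopamine neuron markers had a higher mean in cocaine (median -0.37), with summed levels of 1062 to 2801 FPKM in cocaine and 1740.1 to 3135 FPKM in saline libraries, and 14 of 14 oligodendrocyte markers did (median 0.11). Their part in the members' values was not tested.

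After conditioning 45 of 77 members had a higher mean in cocaine libraries (median 0.011), against 49.9% of the 13135 genes tested. At an unadjusted p under 0.05, 3 members were higher and 1 lower, against 3.93% and 4.28% of all genes (516 and 562 genes), and no gene was called at the adjusted threshold (0%). Mrpl37, a mitochondria-specific large-subunit protein, had between 28.0 and 31.7 FPKM in conditioning cocaine libraries (median 29.3) and between 24.5 and 28.7 FPKM in conditioning saline libraries (median 26.4), a difference of 0.15 ± 0.04 (adjusted p = 0.591). Mrps11, the S11 homologue, had between 19.2 and 23.2 FPKM in conditioning cocaine libraries (median 22.1) and between 18.2 and 21.6 FPKM in conditioning saline libraries (median 19.0), with an exact permutation p of 0.0303 before adjustment. Mrps18b had between 16.7 and 19.8 FPKM in conditioning cocaine libraries (median 19.4) and between 15.6 and 18.1 FPKM in conditioning saline libraries (median 17.4), with an exact permutation p of 0.0390 before adjustment. In all 3 genes the groups overlapped, with the cocaine median higher. Mrpl52, the member with the largest positive difference in the chronic paradigm, had between 77.5 and 95.8 FPKM in conditioning cocaine libraries (median 89.7) and between 87.6 and 106 FPKM in conditioning saline libraries (median 96.6). Its difference here was -0.15 ± 0.06 (adjusted p = 0.596), with overlapping groups. Among cytosolic ribosomal protein genes 25 of 82 had a higher mean in conditioning cocaine libraries (median -0.036), while 69 of 80 oxidative phosphorylation genes had a higher mean (median 0.064). Of 13 microglial markers 0 had a higher mean (median -0.16), of 20 dopamine neuron markers 2 did (median -0.13), and of 14 oligodendrocyte markers 14 did (median 0.11); their part in the members' values was not tested. Rescaled to a total of 1000000, 42 members were positive with a median of 0.0039, against a median of -0.0072 over all genes. Without conditioning cocaine library 3 the members' median was -0.018 and 32 were positive.

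In self-administration 57 of 77 members had a higher mean in cocaine libraries (median 0.029), against 49.4% of the 13130 genes tested. At an unadjusted p under 0.05, 3 members were higher and 0 lower, against 1.61% and 1.81% of all genes (212 and 238 genes), and no gene was called at the adjusted threshold (0%). Mrps21 (chromosome 3, 95862634 to 95871519, minus strand) had between 82.7 and 136 FPKM in self-administration cocaine libraries (median 99.9) and between 77.3 and 119 FPKM in self-administration saline libraries (median 87.7), a difference of 0.19 ± 0.07 (adjusted p = 0.999). Mrps24, the S3 homologue of the small subunit, had between 13.7 and 22.2 FPKM in cocaine libraries (median 17.98) and between 13.9 and 17.1 FPKM in saline libraries (median 15.5). Its difference was 0.16 ± 0.06 (adjusted p = 0.999). Mrps36 had between 30.5 and 61.0 FPKM in cocaine libraries (median 38.5) and between 28.7 and 45.8 FPKM in saline libraries (median 32.1), a difference of 0.21 ± 0.09 (adjusted p = 0.999). In all 3 genes the groups overlapped, and the highest cocaine library lay above every saline library. Over all members the differences ran between -0.093 for Mrps18c and 0.23 for Mrpl34. Without self-administration cocaine library 0, in the deposited numbering, the members' median was 0.0085. Without self-administration saline library 0 it was 0.049. Of 81 oxidative phosphorylation genes 73 had a higher mean (median 0.056), and of 82 cytosolic ribosomal protein genes 26 did (median -0.023).

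Averaged over the 4 paradigms, 70 of 77 members had a positive difference (median 0.041), against 49.6% of 13186 genes. No member was called, and 1 gene of the table was (0.00758%), which is not a member. At an unadjusted p under 0.05, 16 members were higher and 0 lower, against 6.47% and 6.34% of all genes. Mrps21 had the smallest member p, with a difference of 0.12 ± 0.04 and an adjusted p of 0.247. Mrps24 differed by 0.11 ± 0.04 (adjusted p = 0.247), Mrpl42 by 0.12 ± 0.04 (adjusted p = 0.268) and Mrpl45, which lies at the membrane face of the large subunit, by 0.068 ± 0.026 (adjusted p = 0.271). Since the average shares its libraries with the single paradigms, it is no separate evidence. Rescaling each library to a total of 1000000 lowered the count of positive members to 58 in the average and to 61 in the chronic paradigm, with medians of 0.024 and 0.039. The medians over all genes were then -0.017 in the average and -0.042 in the chronic paradigm.

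The cocaine differences were also set against each other. None of the 6 pairs of paradigms gave a member, or any other gene, with a called difference between cocaine effects (0% of 13186 genes, with 146 to 395 genes per pair at an unadjusted p under 0.05). At an unadjusted p under 0.05, 3 members differed between conditioning and chronic injection: Mrpl11 (-0.21 ± 0.08), Mrpl52 (-0.39 ± 0.16) and Mrpl37 (0.19 ± 0.09), each with an adjusted p of 1, against 2.18% of all genes. Between chronic and acute injection Mrpl11 alone did so (0.21 ± 0.08, adjusted p = 1), against 1.11% of all genes. Between self-administration and chronic injection 4 members did, against 2.21% of all genes, led by Mrps30 (-0.18 ± 0.08), a mitochondria-specific protein of the large subunit despite its name. Between self-administration and conditioning 1 member did, Mrpl38 (0.16 ± 0.07, adjusted p = 1), a mitochondria-specific large-subunit protein, against 3% of all genes. No member did between self-administration and acute injection (1.73% of all genes) or between conditioning and acute injection (1.41%). Mrpl11 and Mrpl52 recurred in these pairs, which share the chronic libraries.

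More members were called between paradigms than between cocaine and saline. Across the 4 saline groups 42 of the 77 members were called by limma's F test, against 48.9% of all 13202 genes, a share near that of other genes. At an unadjusted p under 0.05 there were 47 members, against 54.3% of all genes. Across the 3 saline groups of acute injection, chronic injection and conditioning, 0 of the 77 members were called, against 0.493% of all genes, with 7 members at an unadjusted p under 0.05 (10.2% of all genes) and a smallest adjusted p of 0.229. This second F test was added after the values were seen. The comparison of self-administration with the other paradigms was therefore examined separately in cocaine and in saline libraries, which have no library in common.

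In cocaine libraries 49 members fell and 4 rose in self-administration relative to the mean of the other 3 paradigms, with a median difference of -0.16, while 59.1% of the 13175 genes tested were called, 26.9% lower and 32.2% higher, and the median over all genes was 0.019. Of the 77 members 9 had a positive difference, against 53.4% of all genes. In saline libraries 48 members fell and 4 rose, with a median of -0.15, while 59.6% of the 13202 genes tested were called, 27.8% lower and 31.8% higher, and the median over all genes was 0.020. Here 13 members had a positive difference, again against 53.4% of all genes. Lower calls in both contrasts were made for 44 members, which is 89.8% of those that fell in cocaine libraries and 91.7% of those that fell in saline libraries. The share of all genes called lower in both is not given here, so this overlap is not read as a trait of the members. No member was called in opposite directions. Paradigm and any batch of library preparation or sequencing cannot be told apart in this design. Rescaling to a total of 1000000 changed the cocaine split over all genes to 5694 higher and 2685 lower, against 4244 higher and 3542 lower as deposited, and left 41 members lower and 8 higher, with a members' median of -0.094. In saline libraries it left 40 members lower and 8 higher, with a members' median of -0.11. The medians over all genes were then 0.083 in cocaine and 0.064 in saline libraries.

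The median level of the 77 members on the log2(FPKM + 1) scale lay between 4.603 and 4.97 in self-administration cocaine libraries (median 4.66) and between 4.51 and 4.84 in self-administration saline libraries (median 4.65). It lay between 4.89 and 5.10 in the libraries of the other paradigms. Saline libraries of self-administration thus lay below all libraries of the other paradigms, and the highest self-administration cocaine library overlapped their range.

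Mrpl34 had the largest difference. It had between 13.8 and 34.7 FPKM in self-administration cocaine libraries (median 21.1, mean 20.7 ± 5.13, SD, n = 15), against 42.6 to 62.9 FPKM in the 17 other cocaine libraries (median 54.2). It had between 13.4 and 25.9 FPKM in self-administration saline libraries (median 16.2, mean 17.5 ± 4.29, SD, n = 9), against 37.1 to 60.4 FPKM in the 18 other saline libraries (median 51.9). The groups did not overlap in either contrast. The difference was -1.37 ± 0.09 in cocaine libraries (adjusted p = 4.76e-14) and -1.52 ± 0.09 in saline libraries (adjusted p = 1.15e-13), so that self-administration levels were 0.388 and 0.349 of those of the other paradigms on this scale.

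Mrps12 had between 21.3 and 39.6 FPKM in self-administration cocaine libraries (median 33.6), against 56.7 to 75.1 FPKM in the other cocaine libraries (median 68.9), and between 20.2 and 39.8 FPKM in self-administration saline libraries (median 27.8), against 52.4 to 69.1 FPKM in the other saline libraries (median 63.0). Neither pair overlapped. The differences were -1.09 ± 0.08 (adjusted p = 1.56e-12) in cocaine and -1.16 ± 0.07 (adjusted p = 1.85e-13) in saline libraries.

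Mrpl52 had between 33.8 and 51.0 FPKM in self-administration cocaine libraries (median 42.9), against 77.5 to 112 FPKM in the other cocaine libraries (median 95.8), and between 33.8 and 70.8 FPKM in self-administration saline libraries (median 37.8), against 77.7 to 106 FPKM in the other saline libraries (median 94.6). Again neither pair overlapped, and the differences were -1.20 ± 0.06 (adjusted p = 1.25e-16) in cocaine and -1.09 ± 0.09 (adjusted p = 8.78e-11) in saline libraries. Mrps26 fell by 0.63 ± 0.04 in cocaine libraries (adjusted p = 1.14e-14) and by 0.61 ± 0.06 in saline libraries (adjusted p = 7.25e-10). Mrpl54 fell by 0.77 ± 0.05 in cocaine libraries (adjusted p = 3.55e-13) and by 0.74 ± 0.05 in saline libraries (adjusted p = 5.83e-13), and Mrpl43, a mitochondria-specific large-subunit protein, by 0.55 ± 0.04 and 0.59 ± 0.04 (adjusted p = 2.00e-12 and 9.96e-13).

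**Figure D3:**
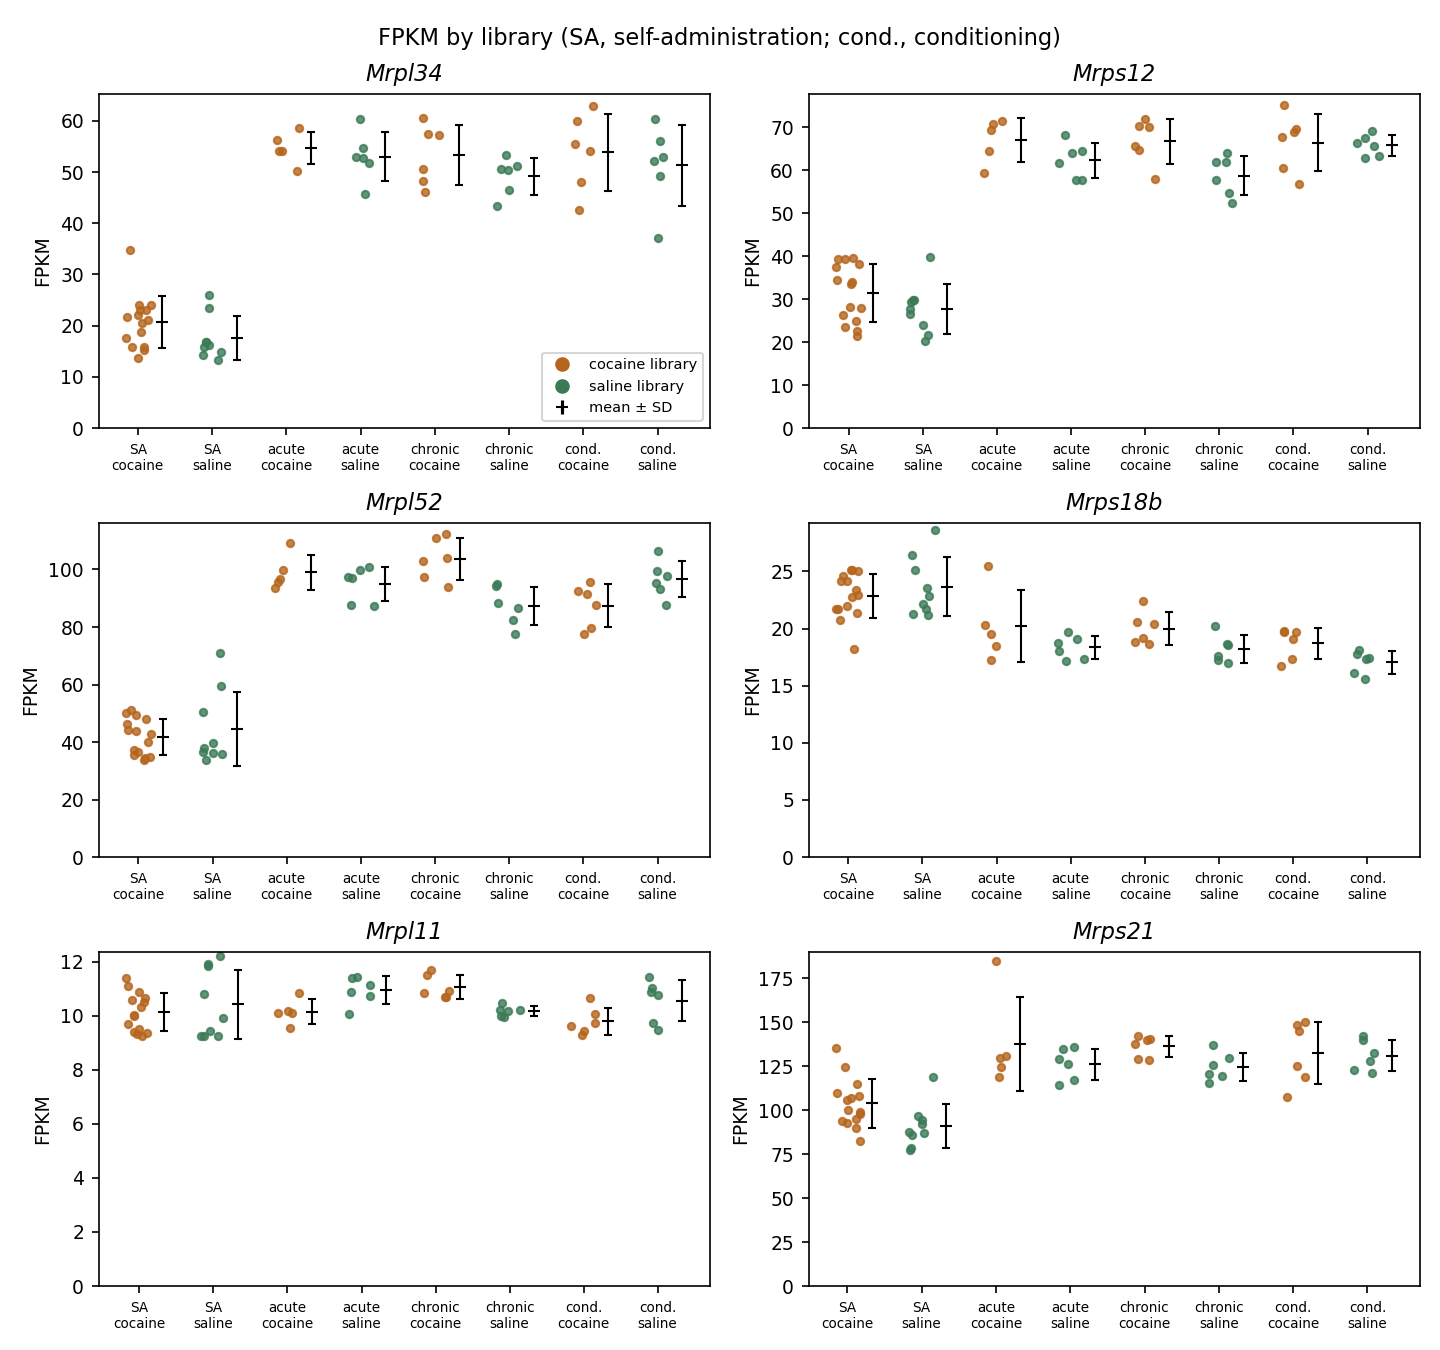
FPKM of 6 members in every library of the 8 groups (points; cocaine brown, saline green), with the mean and SD of each group beside them. Mrpl34, Mrps12 and Mrpl52 are lower in both self-administration groups than in every other library, Mrps18b is higher on average there, and Mrpl11 and Mrps21 show the small cocaine differences described in the text.

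In all, 12 members were lower by at least 0.5 in both contrasts, a limit set after the values were seen. No share of all genes is given for that limit. The 12 members were Mrpl34, Mrps12, Mrpl52, Mrpl53, Mrpl54, Mrpl36, Mrpl57, Mrpl12, Mrps26, Mrpl43, Mrps34 and Mrps28, 8 of the large and 4 of the small subunit, 5 with bacterial homologues and 7 mitochondria-specific. Mrpl12, whose product forms the stalk that recruits translation factors and has also been reported to bind mitochondrial RNA polymerase, fell by 0.62 in both contrasts. Another 32 members fell in both by less: Mrps21, Mrpl20, Mrpl42, Mrpl27, Mrpl48, Mrpl18, Mrps18a, Mrps6, Mrps15, Mrpl14, Mrpl28, Mrpl9, Mrps23, Mrpl3, Mrps5, Mrpl38, Mrpl46, Mrps10, Mrpl4, Mrpl40, Mrpl37, Mrpl55, Mrpl16, Mrps22, Mrps24, Mrpl47, Mrpl21, Mrps9, Mrps11, Mrps35, Mrpl15 and Mrpl19.

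The groups did not overlap, with self-administration lower, for 10 members in cocaine libraries (2.41% of all genes) and 15 in saline libraries (5.01% of all genes). The 10 were 100% of the cocaine list and 66.7% of the saline list: Mrpl52, Mrpl12, Mrps12, Mrps26, Mrpl34, Mrpl43, Mrpl53, Mrps5, Mrpl36 and Mrpl57. For genes that did not overlap in both contrasts, no share of all genes is given. In the other direction, no member was non-overlapping in cocaine libraries (1.59% of all genes) and 2 were in saline libraries, Mrps18b and Mrps25 (3.54% of all genes).

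Mrps18b, Mrps25 and Mrps14 rose in both contrasts. Mrps18b had between 18.2 and 25.1 FPKM in self-administration cocaine libraries (median 22.9), against 16.7 to 25.5 FPKM in the other cocaine libraries (median 19.6), and between 21.2 and 28.6 FPKM in self-administration saline libraries (median 22.8), against 15.6 to 20.2 FPKM in the other saline libraries (median 17.7). The cocaine groups overlapped and the saline groups did not, with differences of 0.21 ± 0.05 (adjusted p = 0.000201) in cocaine and 0.38 ± 0.04 (adjusted p = 4.15e-08) in saline libraries.

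Mrps25, a mitochondria-specific small-subunit protein and the member with the smallest within-group spread, had between 17.1 and 18.9 FPKM in self-administration cocaine libraries (median 17.9), against 15.3 to 17.3 FPKM in the other cocaine libraries (median 16.3), and between 17.2 and 19.2 FPKM in self-administration saline libraries (median 18.1), against 15.6 to 17.2 FPKM in the other saline libraries (median 16.3). Its difference was 0.14 ± 0.02 in both contrasts (adjusted p = 2.33e-06 in cocaine and 2.04e-05 in saline libraries). Mrps14, the S14 homologue, rose by 0.093 ± 0.035 in cocaine libraries (adjusted p = 0.0215) and by 0.11 ± 0.05 in saline libraries (adjusted p = 0.0358), a call that was lost without acute saline library 2, chronic saline library 0, 1 or 5, conditioning saline library 5, or self-administration saline library 0, 2 or 6, with adjusted p-values up to 0.0951.

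The 3 genes named for S18 did not move together. Mrps18a, whose product sits in the large subunit, fell by 0.21 ± 0.05 in cocaine (adjusted p = 0.000318) and by 0.14 ± 0.04 in saline libraries (adjusted p = 0.00592). Mrps18c, the S18 protein of the small subunit, differed by 0.13 ± 0.09 in cocaine libraries (adjusted p = 0.206) and rose by 0.27 ± 0.09 in saline libraries (adjusted p = 0.0135). Mrpl41, a large-subunit protein, rose by 0.12 in cocaine libraries alone (adjusted p = 0.0477), and without self-administration cocaine library 2 its difference was 0.075 (adjusted p = 0.0579). That call was also lost, at adjusted p-values up to 0.0695, when acute cocaine library 2, 3 or 4, chronic cocaine library 0, 2, 3, 4 or 5, conditioning cocaine library 0, 2, 3 or 4, or self-administration cocaine library 0, 3, 5, 6, 7, 8 or 14 was left out. The rest of the members were called in 1 contrast or in none. Mrps7, Mrpl24, Mrpl35, Mrps18c and Mrps36 were called in saline libraries alone, and Mrpl2, Mrps17, Mrpl39, Mrpl41, Mrps2 and Mrps30 in cocaine libraries alone. Whether the contrasts differ for these members was not tested. Neither contrast called Mrpl30, Mrpl23, Mrps33, Mrpl13, Mrpl33, Mrps16, Mrpl10, Mrpl51, Mrpl50, Mrpl22, Mrpl49, Mrpl32, Mrpl44, Mrps27, Mrpl45, Mrps31, Mrpl11, Mrpl1 or Mrpl17.

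**Figure D4:**
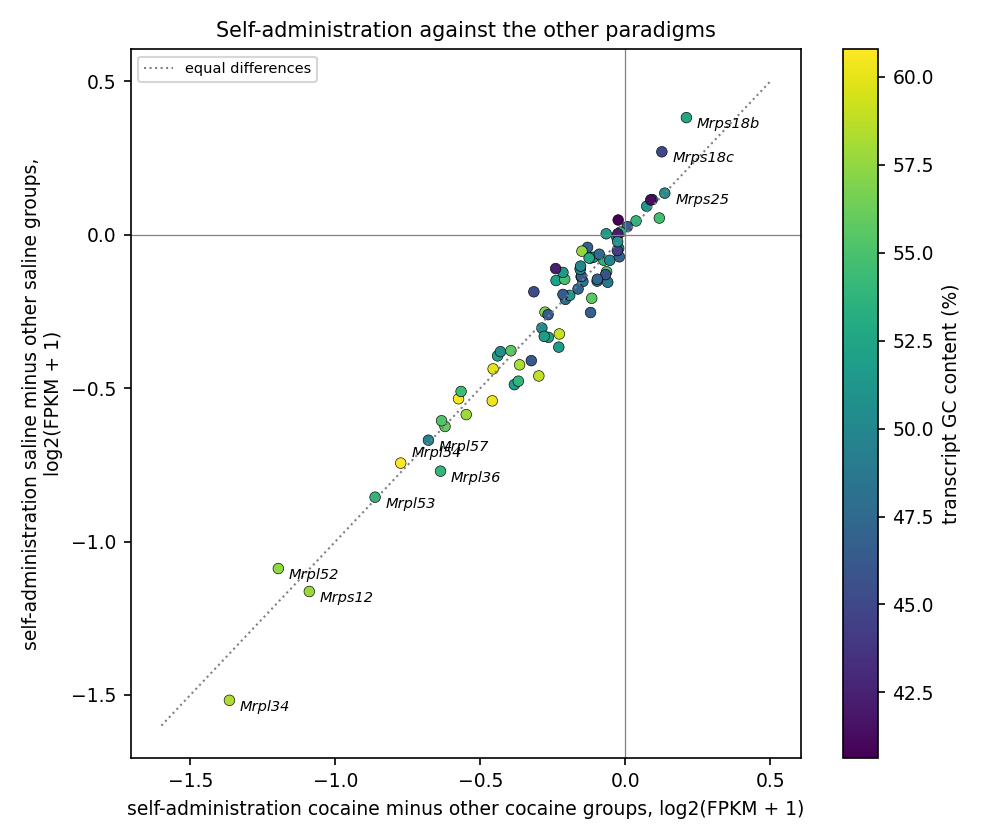
Self-administration minus the mean of the other 3 paradigms on the log2(FPKM + 1) scale for each member, in cocaine libraries (horizontal axis) and in saline libraries (vertical axis), coloured by the GC content of the transcript, with a dotted line of equal differences. Mrpl34 lies lowest, at -1.37 and -1.52, and Mrps18b lies highest, at 0.21 and 0.38.

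The size of the difference varied with the base composition of the transcript. Over the 77 members it correlated with transcript GC content with an r of -0.53 in cocaine and -0.55 in saline libraries, against -0.36 and -0.38 over all genes. These are descriptions across genes that share the same libraries. In saline libraries the median difference over all genes was 0.10 in the lowest of 10 equal bins of GC content and -0.35 in the highest. The 12 members lower by at least 0.5 had a median GC content of 56.7%, against 50.7% for the other members, and a median transcript length of 750 bases, against 855 bases.

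When the median of 20 bins of GC content was taken out of each library, 55 members were lower and 3 higher in cocaine libraries, against 27.2% of all genes lower and 29.7% higher, and 54 were lower and 4 higher in saline libraries, against 27.5% and 29.5%. Of the lower members, 43 in cocaine and 42 in saline libraries were also called lower as deposited, and the rest were new calls. Mrps24 and Mrpl38 lost their lower calls in both contrasts. They differed by 0.061 and 0.025 in cocaine libraries, and by 0.083 and -0.036 in saline libraries. Mrpl14, Mrpl2 and Mrpl55 lost a lower call in cocaine libraries alone, and Mrps18a and Mrps7 in saline libraries alone. Mrpl2, not called in saline libraries as deposited, was then called higher there, at 0.14 (adjusted p = 0.00580). The members' median was then -0.19 in cocaine and -0.18 in saline libraries, against 0.0084 over all genes in both. Of the 12 members, 9 were still lower by at least 0.5 in each contrast. Mrpl34 then differed by -1.20 in cocaine and -1.32 in saline libraries, Mrps12 by -0.93 and -0.97, Mrpl52 by -1.04 and -0.89, and Mrpl53 by -0.91 and -0.92. Mrps34, whose transcript is 60.6% GC and overlaps Nme3, no longer differed by a called amount, at -0.055 (adjusted p = 0.477) in cocaine and 0.090 (adjusted p = 0.126) in saline libraries. Mrpl54, with 60.8% the most GC-rich of the 12, differed by -0.25 (adjusted p = 0.00554) in cocaine and by -0.12 (adjusted p = 0.0906) in saline libraries. Of the members that rose, Mrps18b differed by 0.16 in cocaine and 0.34 in saline libraries and remained called, as did Mrps25 at 0.078 (adjusted p = 0.00395) and 0.064 (adjusted p = 0.0490). Mrps14 did not remain called, at 0.059 (adjusted p = 0.163) and 0.079 (adjusted p = 0.179), nor did Mrps18c in saline libraries, at 0.16 (adjusted p = 0.0746). Mrps18a, which fell in both contrasts as deposited, remained called in cocaine libraries, at -0.14 (adjusted p = 0.0170). It did not in saline libraries, at -0.061 (adjusted p = 0.266). Mrpl41, called in cocaine libraries alone as deposited, was then called in both. It differed by 0.19 (adjusted p = 0.00459) in cocaine and 0.14 (adjusted p = 0.0205) in saline libraries. This correction was chosen after the values were seen.

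**Figure D5:**
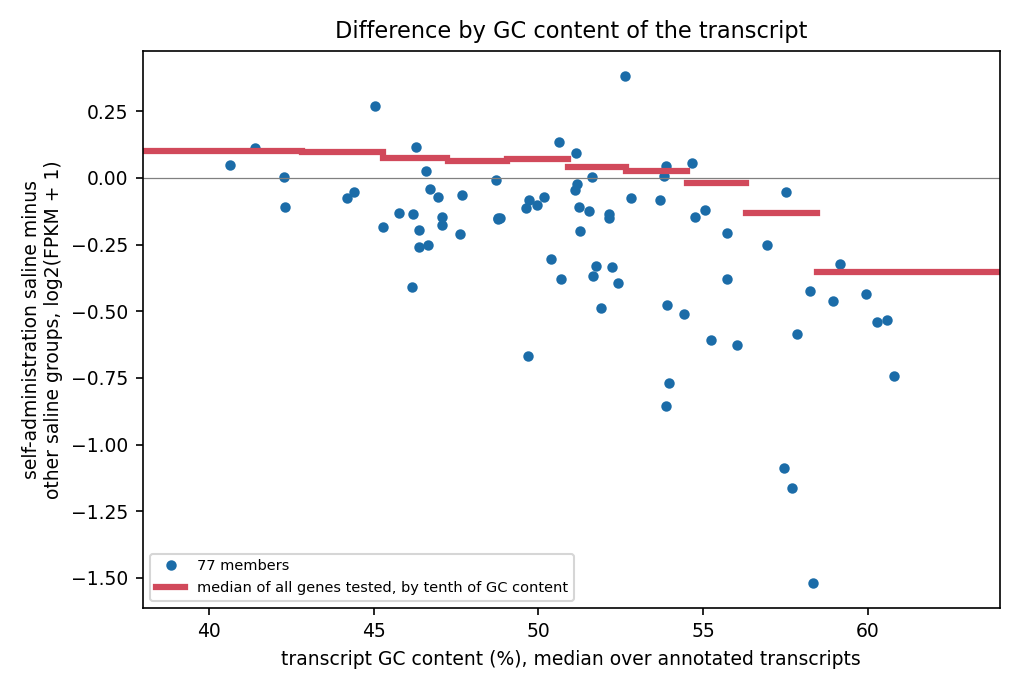
Self-administration saline minus the mean of the other saline groups on the log2(FPKM + 1) scale (vertical axis) against the GC content of the transcript (horizontal axis) for the 77 members, with the median of all genes tested in each of 10 equal bins of GC content as red bars, the outer bars drawn only to the plot's edge. The red bars fall to -0.35 at the highest GC content, and Mrpl34, Mrps12 and Mrpl52 lie far below the bars at their own GC content.

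Most other mitochondrial lists also had more genes lower than higher, to differing extents, so lower calls were not particular to the members. Of the 81 oxidative phosphorylation genes 52 fell and 3 rose in cocaine libraries, and 43 fell and 4 rose in saline libraries. Of the 6 mitoribosomal genes without an Mrp symbol 4 fell in each contrast. Of the 14 translation factors 9 fell and 0 rose in cocaine libraries, and 10 fell and 2 rose in saline libraries. Of the 20 aminoacyl-tRNA synthetase genes 8 fell and 2 rose in cocaine libraries, and 8 fell and 1 rose in saline libraries. Of the 26 assembly and RNA handling genes 11 fell and 3 rose in cocaine libraries, and 10 fell and 5 rose in saline libraries. The 15 genes of mitochondrial transcription and its nuclear regulators were split, with 2 lower and 3 higher in cocaine libraries, 3 lower and 4 higher in saline libraries, and medians of 0.037 and 0.039. The 82 cytosolic ribosomal protein genes were split, with 32 lower and 21 higher in cocaine libraries, and 24 lower and 26 higher in saline libraries. Their median differences were -0.013 and 0.049.

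Cell type markers differed between these libraries as well. Of 14 oligodendrocyte markers 12 fell in each contrast (medians -0.57 in cocaine and -0.51 in saline libraries), with summed levels of 4020 to 7990 FPKM in self-administration cocaine and 4451 to 9290 FPKM in self-administration saline libraries, and of 6572 to 10943 FPKM in the libraries of the other paradigms. Of 13 microglial markers 10 fell in cocaine and 9 in saline libraries. Of 12 astrocyte markers 6 rose and 3 fell in cocaine libraries, and 7 rose and 1 fell in saline libraries. Of 20 dopamine neuron markers 6 fell in cocaine and 7 in saline libraries, with summed levels of 853 to 3020 FPKM in self-administration cocaine and 890 to 2986 FPKM in self-administration saline libraries. Of 12 general neuron markers 7 fell in each contrast (medians -0.19 in cocaine and -0.15 in saline libraries), with summed levels of 3141 to 5294 FPKM in self-administration cocaine and 3654 to 4180 FPKM in self-administration saline libraries, and of 4040 to 6054 FPKM in the libraries of the other paradigms. Of 13 endothelial and pericyte markers 4 rose and 2 fell in cocaine libraries, and 3 rose and 2 fell in saline libraries. No marker of these 6 lists was at 0 in any library. The part of these markers in the members' differences was not tested.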

How the data were processed

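Per the labels' protocols, an RNeasy kit was used for the RNA and a TruSeq RNA kit for the libraries. The authors deposited FPKM values per gene symbol for all 59 libraries. The submitters' processing notes name Bowtie, Cuffnorm and mm10, and the sources used here give no version, annotation or strand setting. Column sums ran between 398577 and 457508 FPKM. The commonest step among low values fitted 0.468% to 1.32% of low genes, so read counts could not be recovered, the depth is unknown and no counting interval is given. No pair of libraries was identical.

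From the deposited FPKM, log2(FPKM + 1) was tested with limma 3.58.1 (R 4.3.3; trended, robust empirical Bayes, two-sided) over all genes averaging 1 FPKM or more in the libraries of a fit, with Benjamini-Hochberg adjustment and a threshold of 0.05. Cocaine was compared with saline within each paradigm. The average used all 8 groups, and self-administration was compared with the mean of the other 3 paradigms within each drug group. Permutation tests used all 462 or 924 arrangements, or 100000 resamples in self-administration. Scripts were tested on simulated data. Transcript length and GC content come from a GRCm38 annotation that matched 95.7% of symbols.

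The members and gene lists were chosen with earlier results of these data known. Named members are up to 4 per direction with the smallest p in each paradigm and self-administration contrast, 6 in the average, 2 per difference between cocaine effects, those of highest and lowest level, and 7 chosen by role. Others named with values were chosen after those were seen. Alternatives were pseudocounts of 0.1 and 5, no filter or one of 5 FPKM, other scalings, library weights, plain empirical Bayes, 20 bins of transcript length or GC content removed, and each library or paradigm left out.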

Additional observations from a re-analysis of the deposited data

Results flagged for a closer look

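In groups of 4 to 10 libraries, 133 sets of values from 18 members and the members' median level were examined for a library far from the rest, and 7 stood out. Chance alone marks about 1 group in 20, and these groups share libraries, so the 7 are values to look at and no count of faults. Self-administration cocaine, with 15 libraries, was above the size limit and was not examined in this way. Acute cocaine library 4 (numbered from 0 as deposited) was the highest of its group for 3 members: Mrps21 at 184.9 FPKM against 131 for the next, Mrpl42 at 107.9 against 85.0, and Mrps36 at 58.6 against 40.9. Self-administration saline library 2 was the highest of its group for Mrps12 at 39.8 FPKM against 29.9 for the next, and for Mrps21 at 119.2 against 96.8. Mrpl43 was lowest in conditioning cocaine library 2, at 35.5 FPKM against 41.8 for the next. Mrps30 was highest in chronic saline library 1, at 18.5 FPKM against 15.9.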

How the results depend on the processing

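No member was called in a cocaine comparison under any alternative run, and the lowest adjusted p was 0.0599. Over all genes, the count called after chronic cocaine was 1 with all 8 groups in one fit and with GC bins removed, in conditioning 1 with library weights and with GC bins removed, and in self-administration 2 with all 8 groups in one fit and 1 with library weights. In the average it was 41 with library weights (0 members), 0 with the 5 FPKM filter or without the acute paradigm, and 2 without the self-administration paradigm. Leaving out single libraries gave 0 to 1 genes in the chronic paradigm (1 without cocaine 0 or saline 0) and 1 to 3 in the average (3 without self-administration saline 2 or 4, 2 without 8). The members' median, and the count positive, then ran from 0.074 to 0.095 and 70 to 73 in the chronic paradigm, 0.0055 to 0.049 and 46 to 59 in the acute, -0.018 to 0.027 and 32 to 53 in conditioning, 0.0085 to 0.049 and 45 to 68 in self-administration, and 0.032 to 0.046 and 65 to 73 in the average. For self-administration against the other paradigms the median then ran from -0.19 to -0.15 in cocaine and -0.17 to -0.14 in saline libraries. Scaling moved it further towards 0, while the median over all genes moved up. Rescaled to a total of 1000000, the members' median was -0.094 in cocaine and -0.11 in saline libraries, against 0.083 and 0.064 over all genes. With quantile normalization it was -0.14 and -0.12, against 0.043 and 0.049. In the cocaine contrast, members with a positive difference numbered 17 with length bins removed, 15 with quantile normalization and 20 rescaled to a total of 1000000. In the saline contrast they numbered 20 with length bins removed and 7 with library weights, which moved the median to -0.23. Of 1894 values of named members, 5 changed sign, none of them called: Mrps35 in the chronic paradigm (0.00069 without cocaine 1, 0.022 without cocaine 3, 0.0013 without saline 4; -0.044 to 0.022 over single libraries left out), and with library weights Mrps18b (0.011) and Mrpl44 (0.012) in self-administration. Another 35 lost a call, all of Mrps18c, Mrps14, Mrpl54 and Mrpl41; 1854 kept direction and call. The causes were not tested. No paired analysis was possible because the table's columns, numbered from 0, could not be tied to the labels' replicate numbers.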
